A study of Mus musculus with 28 samples.

Results

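miR-101a-3p and miR-101b-3p, the 3p mature arms of the mouse miR-101 genes Mir101a and Mir101b, were followed in small RNA-seq of alveolar macrophages (AM) from mice exposed to filtered air (FA) or ozone (O3). They are 2 of the 607 miRNAs listed in any of the 4 deposited tables, they were taken by name (rows mmu-mir-101a-3p and mmu-mir-101b-3p), and both are listed in all 4 tables and passed the filter on low values in each. The reason for choosing this pair was not recorded. As far as can be inferred from the study and an earlier account of these data, which single out miR-101 in co-ex mice, the pair was chosen by its co-ex values of O3 against FA. Those values are therefore a description with no test, and O3 was tested against FA in the SP-A knockout (KO) tables.

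There were 28 libraries in 8 groups. The co-ex mice carry human SP-A1 and SP-A2 transgenes (variants 6A2/1A0). Their background is C57BL/6J without mouse SP-A, so mouse SP-A is deleted in the co-ex animals as well as in the KO animals, and the promoter that drives the transgenes is not given in the sources used here. All mice were 12 weeks old, both sexes were used, the females were synchronized for the estrous cycle, and AM were isolated from lavage. Exposure to FA or O3 lasted 3 h and recovery 4 h. Each co-ex group (females or males, FA or O3) has 4 libraries and each KO group has 3, and a replicate is 1 library. The labels do not tie each library to 1 animal, and the p-values measure the spread between these libraries. The methods of the study count more mice for miRNA work than there are libraries here. Those methods also describe exposure groups larger than the KO groups of libraries. For the miRNAs it identified, the study cites a good correlation among mice, in 3 out of 4. Whether KO libraries were left out by such a rule is not stated in the labels or the methods. The effect of any such choice on the KO p-values was not tested.

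miRNAs are short RNAs loaded into Argonaute proteins, and bases 2 to 8 of the mature strand, the seed, pair with target mRNAs and lower their translation and stability. The miR-101 family is best known for repressing Ezh2, the histone methyltransferase of the Polycomb complex PRC2, and it also targets Dusp1, the phosphatase that turns off MAP kinase signalling in macrophages. The study lists MTDH, a regulator of NF-kB and AKT signalling, as a target of miR-101b-3p. Messenger RNAs were not measured in these libraries. In AM of other mice, used for qRT-PCR, the study reports MTDH mRNA significantly higher in males than in females after O3, in co-ex and in KO.

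The mature sequences below are those of RefSeq (GRCm38.p6), 5′ to 3′, with the seed in capitals. They are shown because members and relatives differ by very few bases, which bears on how reads were assigned.
miR-101a-3p: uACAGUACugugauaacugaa
miR-101b-3p: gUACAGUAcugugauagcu
miR-101c: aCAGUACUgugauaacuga
miR-144-3p: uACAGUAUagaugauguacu
miR-101a-3p is at chr4:101346957-101346977 on the minus strand, in a hairpin that overlaps an exon of the lincRNA gene E130102H24Rik. miR-101b-3p is at chr19:29135338-29135356 on the plus strand, in a hairpin within an intron of Rcl1, which encodes an RNA cyclase-like protein of ribosome biogenesis. Aligned over 18 bases, the members are identical at 17, and the difference is A16G, counted from 1 at the 5′ end of miR-101a-3p. miR-101b-3p as listed starts 1 base earlier, so the stretch ACAGUAC of the miR-101a-3p seed lies at bases 3 to 9 of miR-101b-3p. miR-101c equals bases 2 to 20 of miR-101a-3p at 19 of 19 bases, so a read that lacks the ends of miR-101a-3p could be assigned to either. miR-144-3p, a red cell miRNA, shares the first 7 bases of miR-101a-3p and differs after them. Of 1679 mature mouse miRNAs in RefSeq, 5 share 6 seed bases with a member, the members included. The fifth, miR-582-5p, is listed in 0 tables.

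The hairpins differ more than the mature arms, as the following sequences show with the 3p arm in capitals.
Mir101a: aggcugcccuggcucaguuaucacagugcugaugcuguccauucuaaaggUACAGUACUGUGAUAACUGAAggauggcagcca
Mir101b: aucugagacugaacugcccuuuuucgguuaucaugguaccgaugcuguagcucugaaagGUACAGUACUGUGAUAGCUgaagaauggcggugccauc
The 5p arms of both genes are listed in 0 of the 4 tables, so the reads described here come from the 3p arms.

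The libraries hold between 41542 and 2082034 reads on miRNAs, with a median of 490152. The deposited values are reads divided by a size factor per library, and a value of 3 reads, the most that a count of 0 allows, is between 1.04 and 12.9 on that scale. This floor and the read numbers cover counting error only. Each table was normalized on its own, so normalized values are compared within a table. Levels are also given as RPM (reads on a miRNA scaled to a fixed total of miRNA reads per library). miRNAs of the myeloid list summed to between 45245 and 313566 RPM, with all 7 listed in every table. miR-21a-5p and miR-146b-5p had the highest means of this list in every table, so the sum mainly follows them. miR-223-3p had less, and miR-142a-3p was under the filter in co-ex females. The epithelial list also carried reads, between 2387 and 61905 RPM, so the libraries hold RNA of other cells. In bulk RNA, fewer cells of a type and less RNA per cell cannot be told apart.

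In co-ex females, miR-101a-3p was higher after O3 in every library, while miR-101b-3p was nearly level. The normalized values of miR-101a-3p were 84.1, 95.5, 127 and 103 in FA replicates 1 to 4, and 229, 217, 317 and 338 in O3 replicates 1 to 4. The lowest O3 library stood above the highest FA library. The mean went from 103 ± 18.4 after FA to 275 ± 60.9 after O3 (SD, n = 4 each), a ratio of 2.68, and the change on the log2(value + 1) scale was 1.41 (SE 0.40). Among the 271 miRNAs tested in this table, 4.06% had groups of libraries that did not overlap, 1.48% with O3 higher, and 9 miRNAs had a larger positive change than miR-101a-3p. These values include the contrast in view when the pair was chosen.

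miR-101b-3p in the same libraries had normalized values of 52.6, 115, 83.8 and 200 after FA, and of 64.3, 156, 118 and 181 after O3. The groups overlapped almost completely, and the highest library of all was an FA library. The mean was 113 ± 63.2 after FA and 130 ± 50.8 after O3 (SD, n = 4 each), a log2 change of 0.27 (SE 0.54). Without FA replicate 1 the change was -0.04. The shallowest library, O3 replicate 1, had 16 reads of miR-101b-3p and 57 of miR-101a-3p.

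**Figure D1:**
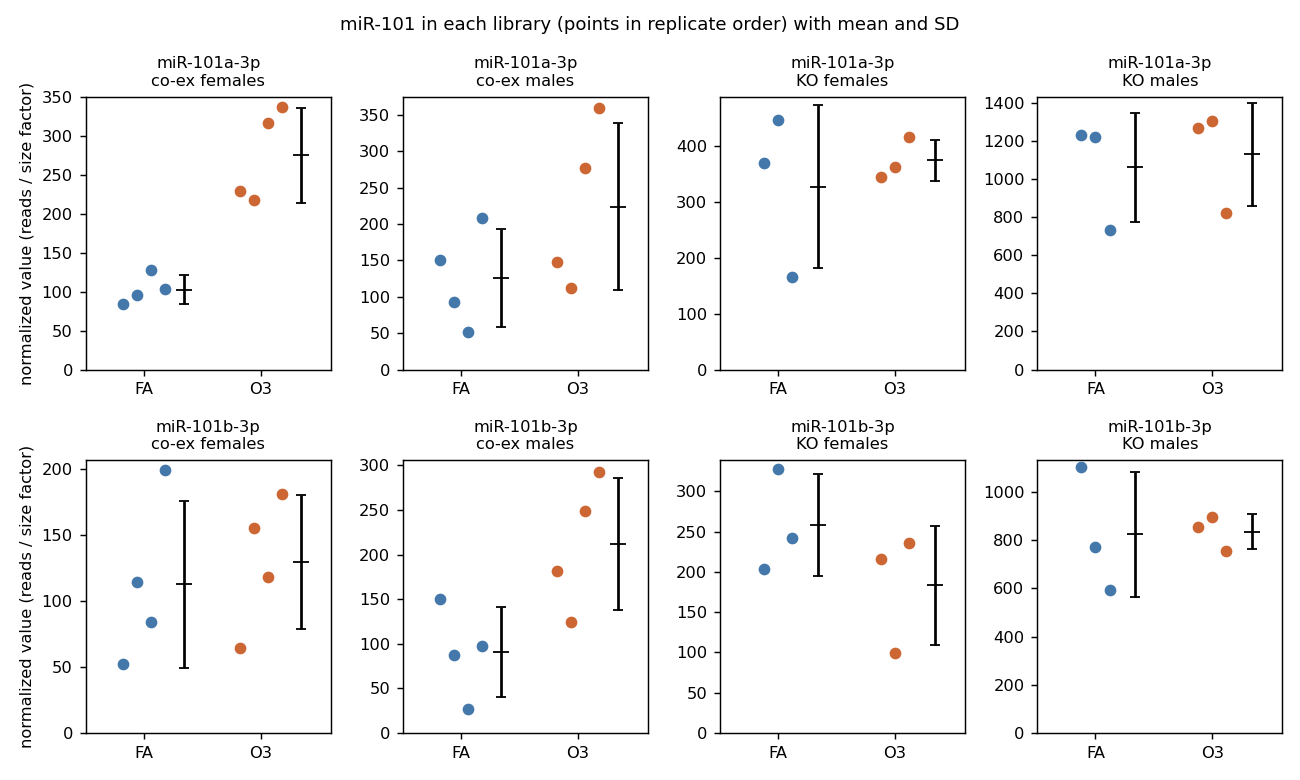
Normalized value (reads divided by size factor, linear axis from 0) of miR-101a-3p (top) and miR-101b-3p (bottom) in each library after FA (blue) and O3 (orange), in replicate order, with group mean and SD as bars. Axes differ between panels, and in co-ex females all 4 O3 libraries of miR-101a-3p, from 217 upwards, lie above the 4 FA libraries, which reach 127.

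Other RNA moved with exposure in the co-ex female libraries. The red cell list (miR-451a, miR-144-3p, miR-144-5p, miR-486a-5p and miR-486b-5p) summed to between 12810 and 137372 RPM after FA and to between 2929 and 4284 after O3, with no overlap. 4 of the 5 are listed and miR-486a-5p is not. Of the 3 that were tested, 1 was called lower, miR-486b-5p, with a log2 change of -3.19 (SE 0.61, limma adjusted p = 0.0341). It was the only limma call, as limma called 1 of the 271 miRNAs tested in co-ex females. DESeq2 did not call miR-486b-5p. Scaled to the total without this list, the log2 change of miR-101a-3p was 1.33, against 1.41. The lymphocyte list summed to between 5768 and 15902 after FA and between 3406 and 6663 after O3. The epithelial list summed to between 23043 and 53236 after FA and between 41572 and 61905 after O3. The median log2 change of its 15 tested members was 0.74, against -0.16 over all miRNAs tested. Their limma adjusted p was 0.778 or higher, with 2 at an unadjusted p under 0.05. The myeloid list summed to between 90665 and 172326 after FA (median 100523) and between 88272 and 186395 after O3 (median 171195). The median log2 change of its 6 tested members was -0.40, and limma called 0 of them. The most abundant of them, miR-21a-5p, had a log2 change of 0.78 (SE 0.46), and the next, miR-146b-5p, 1 of -1.23 (SE 0.51). The part of the lymphocyte, epithelial and myeloid lists in the miR-101a-3p values was not tested.

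In co-ex males it was miR-101b-3p that had the larger difference. Its normalized values were 150, 87.3, 27.2 and 97.9 after FA, and 182, 125, 249 and 293 after O3. Of the O3 libraries, 3 of 4 exceeded the highest FA library, and O3 replicate 2 lay among the FA values. The mean was 90.7 ± 50.5 after FA and 212 ± 73.9 after O3 (SD, n = 4 each), a ratio of 2.34 and a log2 change of 1.38 (SE 0.58). In this table, 2.88% of the 312 miRNAs tested had libraries that did not overlap, 2.24% with O3 higher, and 28 had a larger positive change. FA replicate 3 had 10 reads of miR-101b-3p, and without that library the log2 change was 0.89.

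miR-101a-3p in co-ex males had normalized values of 150, 93.3, 51.8 and 208 after FA, and of 147, 112, 277 and 359 after O3. O3 replicates 3 and 4 were above all FA libraries, and O3 replicates 1 and 2 were among them. The mean was 126 ± 67.9 after FA and 224 ± 115 after O3 (SD, n = 4 each), a log2 change of 0.85 (SE 0.57). Without FA replicate 3 it was 0.49. O3 replicates 3 and 4 also held the highest values of miR-101b-3p.

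Marker lists set some co-ex male libraries apart. In O3 replicate 2, where both members were lowest among the O3 libraries, the epithelial list summed to 57639 RPM, against 4941 to 15657 in the other O3 libraries. Its myeloid list summed to 99259, against 179879 to 187358, and its red cell list to 17478, against 1038 to 7869. Without this library the log2 changes were 1.13 for miR-101a-3p and 1.6 for miR-101b-3p. FA replicate 3, with the lowest values of both members, had the lowest myeloid sum of the FA libraries, 91774 against 143043 to 159180. Its lymphocyte sum was 45547, against 18452 to 20720. The part of these lists in the miR-101 values was not tested.

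In KO females, neither member passed the test. miR-101a-3p had normalized values of 369, 447 and 165 in the FA libraries and of 345, 362 and 416 in the O3 libraries. All O3 values fell within the FA range. Its log2 change was 0.31 (SE 0.45, 95% interval -0.72 to 1.34, limma adjusted p = 0.700). miR-101b-3p had 204, 327 and 242 after FA and 216, 99.1 and 235 after O3. The lowest value, in O3 replicate 2, rests on 23 reads, and the other O3 libraries lay among the FA ones. Its log2 change was -0.56 (SE 0.49, 95% interval -1.68 to 0.56, limma adjusted p = 0.564). In this table limma called 13.2% of the 319 miRNAs tested, and neither edgeR's quasi-likelihood test nor DESeq2 called a member. Its share of miRNAs with no overlap between FA and O3 was 31.3%.

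The KO female libraries differed by exposure in other RNA. The epithelial list summed to between 2387 and 5937 RPM after FA and to between 30553 and 56185 after O3, and limma called 11 of its 15 tested members, all higher. The muscle and mesenchyme list summed to between 205 and 939 after FA and to between 1008 and 90344 after O3, the last in O3 replicate 3, against 2989 or less in the other O3 libraries. The endothelium list summed to between 8.97 and 16.0 after FA and to between 48.9 and 674 after O3. Without O3 replicate 3 the log2 change was 0.23 for miR-101a-3p and -0.79 for miR-101b-3p. The part of these lists in the values of the members was not tested. With each library scaled to its total without the 10 most abundant miRNAs, the log2 change of miR-101a-3p was 0.06 and that of miR-101b-3p was -0.80. With total-count scaling they were 0.50 and -0.37.

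In KO males the values after FA and O3 were close. miR-101a-3p had normalized values of 1233, 1222 and 733 after FA, and of 1267, 1306 and 821 after O3. In each exposure a pair of libraries was high and replicate 3 was low. Its log2 change was 0.10 (SE 0.41, 95% interval -0.88 to 1.07, limma adjusted p = 0.967). miR-101b-3p had 1106, 773 and 594 after FA and 855, 896 and 757 after O3. All O3 values lay inside the FA range. Its log2 change was 0.06 (SE 0.40, 95% interval -0.87 to 1.00, limma adjusted p = 0.980). limma called 0.909% of the 440 miRNAs tested in this table, and neither edgeR's quasi-likelihood test nor DESeq2 called a member.

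FA replicate 3 of KO males stands apart from its group. Its myeloid list summed to 45245 RPM, against 246825 and 313566 in the other FA libraries, and its epithelial list to 32885, against 2769 and 3492. In the KO male O3 libraries the epithelial list summed to between 29348 and 38040, so FA replicate 3 lay within the O3 range and the other FA libraries lay below it. The muscle and mesenchyme list of FA replicate 3 summed to 29713, against 835 and 850 in the other FA libraries and 3070 to 4869 after O3, and its endothelium list to 7177, against 10.7 and 11.2, and 74.0 to 124 after O3. Without it, the log2 changes were -0.15 for miR-101a-3p (limma adjusted p = 0.801) and -0.15 for miR-101b-3p (limma adjusted p = 0.792). O3 replicate 3, lowest of the O3 libraries in both members, had a red cell sum of 112488, against 5414 and 35046. Its myeloid sum was 121915, against 210803 and 222778. Without O3 replicate 3 the log2 changes were 0.32 for miR-101a-3p and 0.13 for miR-101b-3p. The part of these lists in the values of the members was not tested.

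The difference between genotypes in the response to O3 was not tested, because the co-ex values were in view when the pair was chosen.

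**Figure D2:**
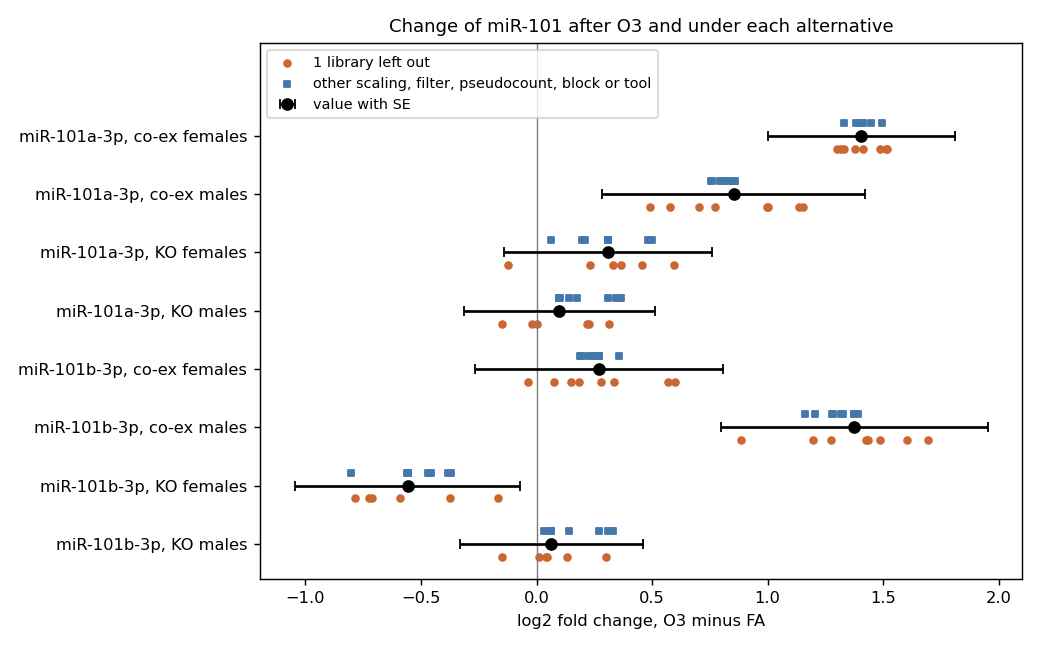
Log2 change (O3 minus FA, log2(value + 1) scale) of each member in each table (black, with SE), under other scalings, filters, pseudocounts, blocks or tools (blue), and with 1 library left out (orange). For miR-101a-3p in co-ex females every alternative lies between 1.30 and 1.51, and for both members in KO males the values lie on both sides of 0.

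The O3 response was compared between the sexes in KO mice, as a difference of the changes within each table. For miR-101a-3p the response of males minus that of females was -0.21 (log2, SE 0.60, limma adjusted p = 0.947). For miR-101b-3p it was 0.62 (SE 0.59, limma adjusted p = 0.878), from a lower mean after O3 in females and a level mean in males. limma called 0% of the 309 miRNAs tested, with 17 at an unadjusted p under 0.05.

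Levels were set on a common scale as RPM, from the recovered reads. Adapter ligation favours some ends over others, so levels of different miRNAs are approximate. The authors' library codes run in separate ranges for co-ex and KO mice. A difference in level between genotypes thus cannot be told apart from one between sets of libraries. The codes of co-ex mice also run in separate ranges by sex and, within each sex, by exposure. If the codes mark sets of libraries, the same limit holds for co-ex differences between the sexes or exposures. Some KO FA libraries, FA replicate 3 of KO males among them, have codes above those of all KO O3 libraries. What the codes stand for is not stated. miR-101a-3p ranked between 59 and 163 among the miRNAs of a library, and miR-101b-3p between 68 and 205. The mean level of miR-101a-3p was highest in co-ex females after O3, at 1758 ± 428 (SD, n = 4). It was followed by KO males after O3 at 961 ± 253 (SD, n = 3), KO females after O3 at 763 ± 82.5 and KO males after FA at 763 ± 229. Next came co-ex females after FA at 656 ± 117, co-ex males after O3 at 648 ± 370, KO females after FA at 574 ± 228 and co-ex males after FA at 401 ± 272. From KO males after O3 downwards, neighbours in this order differ by less than the larger of their SDs. All 4 co-ex female O3 libraries, from 1372 upwards, exceeded every library of the other 7 groups, whose highest was 1134.

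The levels of miR-101b-3p spread less between groups. The mean was 830 ± 325 in co-ex females after O3, 736 ± 470 in co-ex females after FA, 708 ± 81.4 in KO males after O3 and 610 ± 246 in co-ex males after O3. It was 589 ± 187 in KO males after FA, 459 ± 95.1 in KO females after FA, 372 ± 145 in KO females after O3 and 275 ± 142 in co-ex males after FA. Each pair of neighbours differed by less than the larger of their SDs. The highest single library, at 1410, was an FA library of co-ex females, and the lowest, at 79.1, an FA library of co-ex males.

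**Figure D3:**
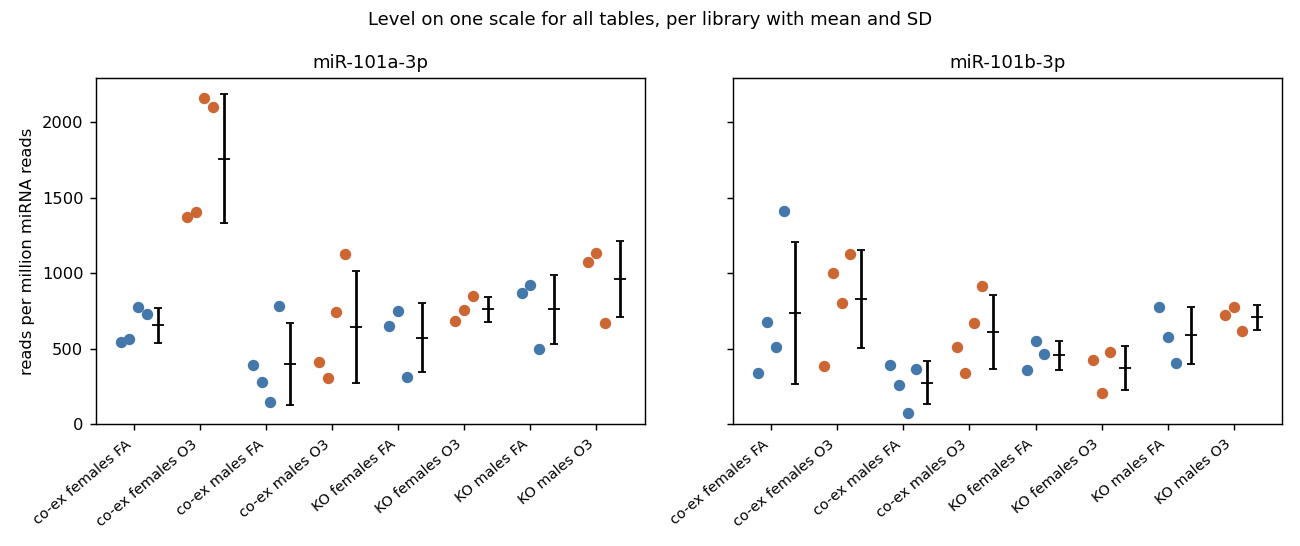
RPM (linear axis from 0) of each member in all 28 libraries after FA (blue) and O3 (orange), with group mean and SD. The co-ex female O3 libraries of miR-101a-3p, between 1372 and 2158, stand above all others, while no group of miR-101b-3p does. The former are part of the contrast in view when the pair was chosen.

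Males and females were compared at matched exposure on recovered reads. In KO mice after FA, the log2 difference of males minus females was 0.45 for miR-101a-3p (SE 0.56, edgeR adjusted p = 0.852) and 0.43 for miR-101b-3p (SE 0.49, edgeR adjusted p = 0.838). edgeR's quasi-likelihood test called 0% of 331 miRNAs, with 26 at an unadjusted p under 0.05, and DESeq2 called 13. After O3 it was 0.48 for miR-101a-3p (SE 0.31, edgeR adjusted p = 0.760). For miR-101b-3p the KO O3 libraries had 727, 778 and 618 RPM in males and 428, 207 and 480 in females. Each male library stood above each female one, as 14.3% of the 363 miRNAs did in one direction or the other. The log2 difference was 1.04 (SE 0.39), with an unadjusted p of 0.0246 and an edgeR adjusted p of 0.447. edgeR's quasi-likelihood test called 0% here, with 31 at an unadjusted p under 0.05, and DESeq2 called 7.

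In co-ex mice the same differences are given with no test, and there the sexes have separate ranges of library codes. After O3, miR-101a-3p had 416, 305, 742 and 1129 RPM in males and 1372, 1404, 2158 and 2099 in females. The sexes did not overlap, as for 13% of the 330 miRNAs, and males minus females was -1.13 (log2, SE 0.53). After FA it was -0.45 (SE 0.56), with overlap. For miR-101b-3p it was -0.99 (SE 0.65) after FA and -0.17 (SE 0.54) after O3, with overlap in both.

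The ratio of miR-101a-3p to miR-101b-3p within a library needs no scaling between libraries. In co-ex females its median was 1.18 after FA (range 0.518 to 1.6) and 2.27 after O3 (1.4 to 3.56), with overlap. miR-101a-3p had more reads in 2 of 4 FA libraries and in 4 of 4 O3 libraries. In co-ex males the median was 1.48 after FA and 1.00 after O3, so the balance differed in the other direction, with overlap. In KO females it was 1.37 and 1.77, and in KO males 1.23 and 1.46, and in both the ranges overlapped. The mean log2 ratio was 0.25 after FA and 1.12 after O3 in KO females, and 0.02 and 1.16 in co-ex females. The higher ratio after O3 was thus not particular to co-ex females. These are descriptions, with no test.

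**Figure D4:**
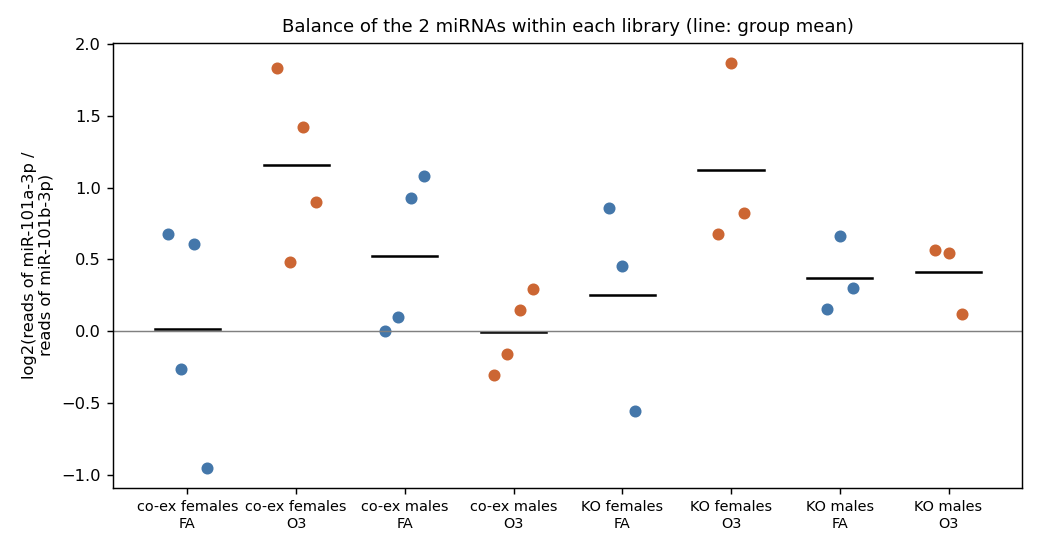
Log2 ratio of the reads of miR-101a-3p to those of miR-101b-3p in each library after FA (blue) and O3 (orange), with the mean of each group as a line and equal reads at 0. In co-ex females the 4 O3 libraries lie above 0 and 2 of the 4 FA libraries do, and in co-ex males the O3 libraries lie on both sides of 0. In KO females the 3 O3 libraries and 2 of the 3 FA libraries lie above 0.

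The split of reads between near-identical sequences is uncertain, since the counting could assign a read to either, so the sums are also given. In co-ex females the members together had a normalized value of 215 ± 68.0 (FA) and 405 ± 95.6 (O3; SD, n = 4), with a log2 change of 0.93 (SE 0.29). Its groups overlapped slightly, at 303 for the highest FA and 294 for the lowest O3 library. In co-ex males the sum was 217 ± 108 and 436 ± 188, with a log2 change of 1.08 (SE 0.56). The change of the sum was -0.03 (SE 0.30) in KO females and 0.08 (SE 0.29) in KO males. miR-101c is listed in 3 tables, with 0 to 20 reads per library in co-ex females. Adding it to miR-101a-3p there gave a log2 change of 1.31 (SE 0.25), still with no overlap. miR-144-3p had 0 to 25 reads per library in co-ex females.

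Of a list of 4 other miRNAs known to target Ezh2, those that could be tested did not pass. miR-26a-5p and miR-26b-5p were tested in all 4 tables, miR-138-5p was under the filter in co-ex females and tested in the other tables, and miR-124-3p is listed in none. The limma adjusted p was 0.507 or higher. miR-26a-5p, the most abundant of them, had log2 changes of 0.32 (SE 0.50) in co-ex females, -0.16 (SE 0.40) in co-ex males, 0.31 (SE 0.25) in KO females and -0.22 (SE 0.42) in KO males. miR-26b-5p in KO males was lower in all O3 libraries, with a log2 change of -0.62 (SE 0.33, limma adjusted p = 0.764), in a table where 12.7% of miRNAs did not overlap. miR-340-5p, which the study lists for MTDH beside miR-101b-3p, had log2 changes of 0.87 (SE 0.86) in co-ex females, 0.37 (SE 0.82) in co-ex males, 0.59 (SE 0.51) in KO females and -0.67 (SE 0.41) in KO males, with limma adjusted p between 0.564 and 0.944.

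Likeness was measured as the Pearson correlation of log2(value + 1) over the 28 libraries after the group means were taken off, among 229 other miRNAs. The libraries share depth and size factor with every miRNA, so it is a description. Closest to miR-101a-3p were miR-511-3p (r = 0.69), which lies in an intron of the mannose receptor gene Mrc1, miR-21a-5p (0.66) and miR-362-3p (0.65). miR-101b-3p came after them at 0.61, and miR-340-5p at 0.59. Closest to miR-101b-3p were miR-24-2-5p (0.76), miR-15a-5p (0.74), miR-16-5p (0.67), miR-21a-5p (0.67) and miR-340-5p (0.65). The members correlated with each other at 0.86 in co-ex males (8 libraries), 0.77 in KO males (6 libraries), 0.36 in co-ex females (8 libraries) and 0.20 in KO females (6 libraries). The difference between these correlations was not tested. Each rests on few libraries, and some hold few reads. Co-ex male FA replicate 3 had 19 reads of miR-101a-3p and 10 of miR-101b-3p. O3 replicate 1 of co-ex females had 16 of miR-101b-3p, and O3 replicate 2 of KO females had 23.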

How the data were processed

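Per the labels and the methods of the study, the authors trimmed the reads with the FASTX-Toolkit, counted miRNAs with Chimira and used edgeR and TCC. The miRBase release and the aligner's settings are not given in the sources used here. The library columns the authors deposited hold a signal, reads divided by a size factor, in 1 table per genotype and sex. Every value above 0 was a whole multiple of 1 step (tolerance 0.01 reads, 100% in all 28 libraries), so reads were recovered. The deposited tables also hold the authors' own log2 fold changes, p-values and q-values, a mean and a ranking score, which were not used here.

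O3 was compared with FA within each table with limma on log2(value + 1), using a trended prior. A miRNA entered where its value reached 5 in a number of libraries equal to the size of the smaller group. P-values were adjusted by Benjamini-Hochberg over all of these miRNAs, and the threshold was 0.1. Males and females were compared by edgeR's quasi-likelihood test with TMM, at 5 RPM or more in 3 libraries. The fits were run on simulated reads with planted changes. The only condition checked was that the median upward change came out near the planted one, with no limit on false or missed calls. Alternatives were other scalings, no filter, a pseudocount of 0.1, edgeR, DESeq2, a replicate block and each library left out. Scaling without the red cell list was chosen after seeing the data. The members, lists and tests were chosen with earlier results of these data known. Named miRNAs are the members, miR-101 relatives by seed, the fixed Ezh2 and MTDH lists, the marker lists, and the 5 most alike for each member. Sequences are from RefSeq and gene overlaps from GENCODE, both on GRCm38. Python 3.11.15 was used with numpy 2.4.6, pandas 2.3.3 and matplotlib 3.10.9, and R 4.3.3 with DESeq2 1.42.0, edgeR 4.0.16 and limma 3.58.1.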

Additional observations from a re-analysis of the deposited data

How the results depend on the processing

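Of 216 values of the members under an alternative, 210 kept their direction and their side of the threshold or, where the members were not tested (O3 against FA in co-ex mice, and levels), moved by less than 1 SD. For these untested values nothing is said of a threshold, and that of miR-101b-3p in co-ex females was -0.04 without FA replicate 1. With 4 libraries per group, leaving out 1 cannot move a co-ex change by 1 SD. Dropping the filter or adding the replicate block also leaves each O3 change within a table as it was. Much of the count was thus fixed in advance, and it is no measure of robustness. The ranges below are more informative. The other 6 changed sign, each with 1 library left out and each with neither value called. With 1 library left out, the log2 change of miR-101a-3p ran from -0.12 to 0.59 in KO females and from -0.15 to 0.32 in KO males, that of miR-101b-3p from -0.15 to 0.30 in KO males, and the sex difference in the KO response of miR-101a-3p from -0.50 to 0.22. FA replicate 3 of KO females (-0.12) and FA replicate 3 of KO males (-0.15 for both members) gave the lowest of these, O3 replicate 2 of KO males gave -0.02 for miR-101a-3p, and for the response difference the sign turned without FA replicate 3 of KO females (0.22) or O3 replicate 3 of KO males (0.01). In co-ex females the change of miR-101a-3p ran from 1.30 to 1.51 with 1 library left out and from 1.33 to 1.49 under the other alternatives. In co-ex males that of miR-101b-3p ran from 0.89 to 1.69 and from 1.16 to 1.39. The number of miRNAs called in KO males was 4, and was 2 with edgeR's quasi-likelihood test, 15 with DESeq2, 1 with the replicate block and 0 to 86 with 1 library left out, the 86 without FA replicate 3. In KO females it was 42, and 25 to 52 with 1 library left out. The cause was not tested. Total-count scaling moved the median of all miRNAs by 0.19 in KO females and 0.24 in KO males, and leaving out the 10 most abundant miRNAs moved it by -0.24 in KO females and 0.20 in KO males.

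Same-numbered FA and O3 libraries did not deviate together, with correlations between -0.276 and 0.233, and 6 of 14 FA libraries correlated best with the O3 library of their own number, so the numbers are not taken as pairs. With the replicate block, 37 miRNAs were called in KO females, and adjusted p for the members was between 0.629 and 0.970 in the KO tables. The low read numbers of miR-101b-3p, 10 and 16 in the shallowest co-ex libraries, limit its values there.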
